A study of Mus musculus with 12 samples.

Results

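The medium by LPS interaction is the difference between 2 responses to lipopolysaccharide (LPS), the cell-wall component of Gram-negative bacteria. For each gene, the log2 change with LPS in cells kept in a MOPS-buffered medium was taken, and the log2 change with LPS in a HEPES-buffered medium was subtracted. The interaction was computed for 14506 of the 54532 genes in the count table, those with enough counts to be tested. The cells were resident macrophages from the peritoneal cavity of C57BL/6 mice, cultured in DMEM with one buffer or the other for 24 h. Treated cells then received 10 ng/ml LPS for 2 h, and control cells received none. RNA-seq libraries were made in 4 groups of 3, each medium without and with LPS. All groups shared strain, cell source and time in medium, and the labels name no transgene, deletion or other agent. The study's subject is acidity outside the cell. In its design description the pH values 6.8 and 7.4 come before the buffer names, and pH 6.8 is matched to MOPS by that order only. Buffer and pH change together, and every difference below is one between whole media. The labels do not say whether the 3 libraries of a group came from separate animals or cultures, so p-values measure the spread between libraries, which may be technical.

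Macrophages sense LPS through Toll-like receptor 4, which switches on the transcription factor NF-kappaB and interferon regulatory factors. A first wave of cytokines, chemokines and immediate-early genes rises quickly, while many genes of the resting cell are switched down. The endoplasmic reticulum of the activated cell must fold large amounts of secreted protein, and it calls on the unfolded protein response and on the stress factor ATF4 to do so.

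An interaction on the log2 scale has several possible shapes. A gene can start level in both media and respond to unequal extents, it can start higher in one medium and end level, or it can respond in opposite directions. For this reason each interaction is set beside the difference between media at rest (MOPS over HEPES without LPS) and with LPS. The comparisons at rest and with LPS share no library, whereas the interaction is built from all 12 libraries and shares libraries with each of them. Values are log2 changes ± standard error, or levels in each library in CPM, the counts adjusted for depth and for composition by TMM, and a gene was called when its p in edgeR, adjusted by Benjamini-Hochberg, was under 0.05.

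Library totals were 20114613 to 24734853 counts, and replicates correlated at 0.991 to 0.994. All 14 macrophage markers were above 0, with a summed level of 18170 to 18410 CPM in MOPS, 27280 to 28660 in HEPES, 23310 to 26240 in MOPS with LPS and 35710 to 37390 in HEPES with LPS. B cell markers (15, none at 0) summed to 254.7 to 261 CPM in MOPS, 117.8 to 201.9 in HEPES, 151 to 167.3 in MOPS with LPS and 36.91 to 42.05 in HEPES with LPS. T and NK cell markers were low throughout, with Ncr1, Gzma and Prf1 at 0. Granulocyte and mast cell markers were also low, with Retnlg and Prg2 at 0, as were mesothelial and stromal markers, with Lum at 0. Dendritic cell and small peritoneal macrophage markers (14, Fcnb at 0) differed between the media, with sums of 842.9 to 863.2 CPM in MOPS, 249 to 262.7 in HEPES, 851.6 to 893.2 in MOPS with LPS and 257.5 to 272.5 in HEPES with LPS. In bulk RNA, fewer cells of a type and less RNA per cell cannot be told apart.

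The response to LPS depended on the medium for 5719 genes (39.4% of those tested). The LPS change was higher in MOPS than in HEPES for 3173 genes (21.9%) and lower for 2546 (17.6%). Most of these differences were modest, with a median of 1.38-fold among the called genes. At 2-fold or more stood 588 genes in the higher and 224 in the lower direction, and 600 genes (4.14%) differed by significantly more than 1.5-fold, 413 higher (2.85%) and 187 lower (1.29%). Which direction held the majority depended on the analysis. It was 3891 higher and 1972 lower with libraries scaled by their totals, 2783 and 2899 with DESeq2-type size factors, and 2584 and 2732 in DESeq2. Lower calls also outnumbered higher ones when replicate 7 or 8 of MOPS with LPS, or any 1 library of HEPES with LPS, was left out (for example 2602 higher and 2938 lower without replicate 7). Protein-coding genes were called in 44.5% of 12140 cases, and long intergenic noncoding RNAs in 16.1% of 384, with 50 higher and 12 lower.

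Most interaction genes responded in the same direction in both media but less in MOPS. LPS called 10007 genes (69%) in MOPS, 34.1% higher and 34.9% lower, and 11150 (76.9%) in HEPES, 35.6% higher and 41.2% lower. Of these, 8891 were called in both. Over all genes tested the median size of the log2 LPS change was 0.476 in MOPS and 0.675 in HEPES, and 69.2% of genes had the larger change in HEPES. Among the interaction genes, 2076 (36.3%) rose less in MOPS and 2377 (41.6%) fell less. A larger rise in MOPS was seen for 621 (10.9%) and a larger fall for 332 (5.81%). In 280 genes (4.9%) the response was called in opposite directions, 155 falling in HEPES and rising in MOPS and 125 the reverse.

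**Figure D1:**
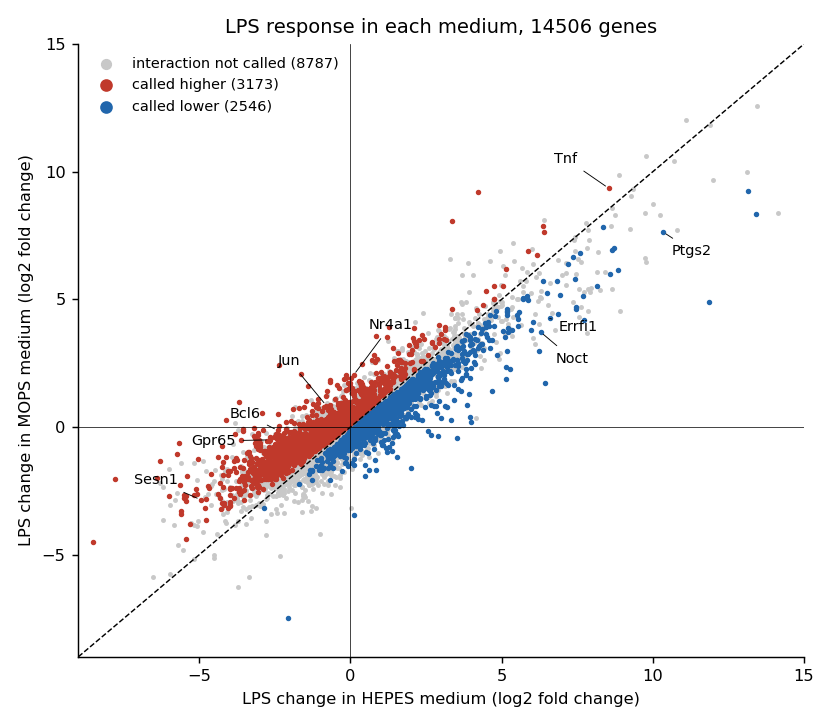
Log2 LPS change in HEPES (x axis) against that in MOPS (y axis) for 14506 genes, with the genes called in the interaction coloured by direction and the diagonal marking equal responses. Both media give changes of the same sign for most genes, and the points far from 0 lean below the diagonal on the right and above it on the left.

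The median difference grew with the size of the mean response, whereas the share of genes called did not. In the 143 genes with the deepest mean fall (below -3 on the log2 scale), the median interaction was 1.225, so the fall was shallower in MOPS. It was 0.522 for mean changes from -2 to -1 and close to 0 (-0.048) for changes from 0 to 0.5. Among rising genes the median was -0.273 for mean changes of 1 to 2, and -0.878 for the 130 genes with a mean rise of 5 or more. The share called lower was 42.6% for mean changes of 0.5 to 1 and 23.8% for 5 or more. Among falling genes the share called higher was 39.1% from -2 to -1 and 37.8% below -3. The mean change is computed from the same libraries as the interaction, and these medians and shares are a description without a test.

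**Figure D2:**
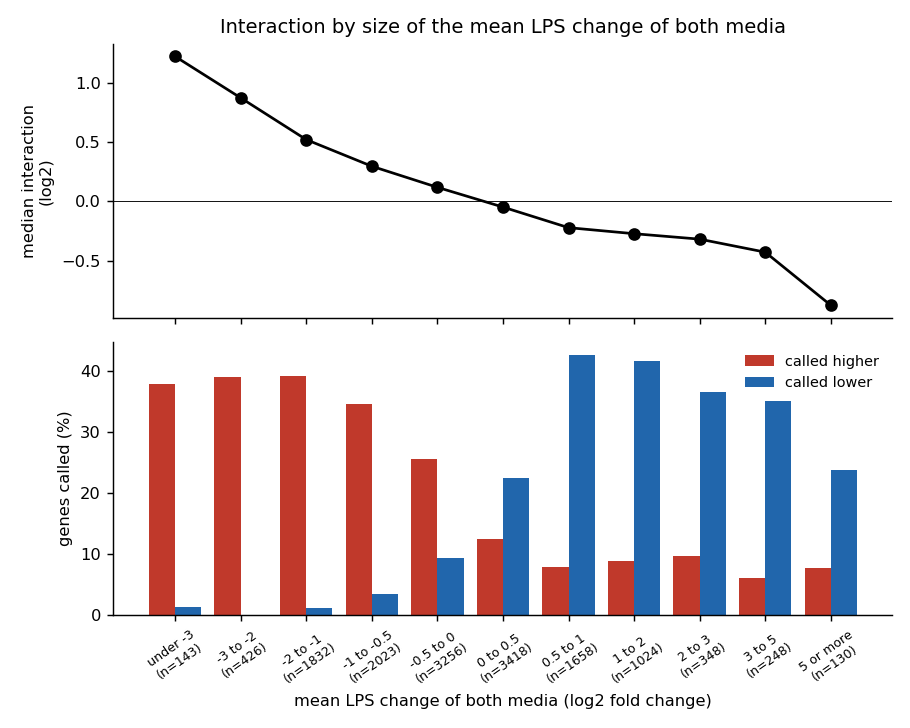
Interaction (y axis, log2) by the mean LPS change over both media (x axis, log2 bins), with the median of each bin above and the percentage of genes called in each direction below. Medians run from 1.225 in the most lowered genes to -0.878 in the most raised genes, and cross 0 near a mean change of 0.

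Much of the difference between the media under LPS was already present at rest. Of 7801 genes (53.8% of those tested) that differed between the media with LPS (26.9% higher and 26.9% lower in MOPS), 3854 (49.4%) had the same call at rest. For 2318 of these no interaction was called, and for 1617 its 95% interval also lay within 1.5-fold either way, so the resting difference was carried through LPS. Another 3006 (38.5%) were not called at rest, and an interaction was called for only 1888 of them. The remaining 941 (12.1%) had the opposite call at rest, all with an interaction called. At rest 7205 genes (49.7%) differed, 24.3% of those tested higher and 25.4% lower in MOPS, and 3708 of them (51.5%) had an interaction, against 2011 of 7301 (27.5%) genes not called at rest. Both calls use the same resting libraries and are not independent, so these 2 shares are a description without a test.

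The 5719 interaction genes were sorted by these calls. In 1888 (33%) the difference appeared with LPS: the media did not differ detectably at rest and did under LPS, 976 higher and 912 lower in MOPS. In 1038 (18.2%) a resting difference widened, 715 upward and 323 downward. In 1729 (30.2%) a resting difference narrowed or was no longer called with LPS, and in 941 (16.5%) it turned over. For 123 (2.15%) no difference was called at rest and none in the direction of the interaction with LPS. Narrowing makes up nearly as many interactions as appearance, and in those genes the media differed less with LPS than at rest or no longer detectably.

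**Figure D3:**
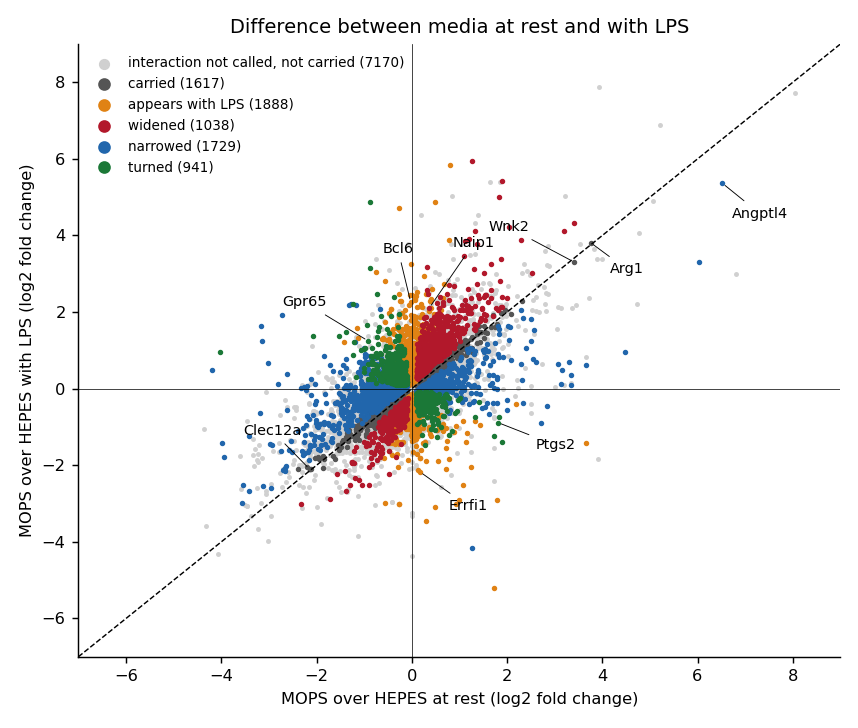
Log2 difference between the media at rest (x axis) and with LPS (y axis) for the genes tested, with interaction genes coloured by class (the 123 outside the 4 main classes are not drawn). Genes that appear with LPS lie along the vertical axis, narrowed genes toward the horizontal axis, turned genes in the upper left and lower right, and carried genes on the diagonal.

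Errfi1, which encodes an inhibitor of the EGF receptor, responded to unequal extents with no difference called at rest. At rest it stood at 8.90, 8.96 and 9.17 CPM in the MOPS libraries and at 7.29, 8.42 and 8.37 CPM in HEPES. With LPS it reached 193, 152 and 171 CPM in MOPS and 796, 778 and 743 CPM in HEPES. All HEPES libraries with LPS stand far above those of MOPS, whereas the resting ranges lie close without overlapping and their difference was not called (0.17 ± 0.11, adjusted p = 0.223). The interaction was -2.34 ± 0.13 (adjusted p = 1.53e-10). Errfi1 (ENSMUSG00000028967) lies on chromosome 4 from 150853919 to 150868892 in the mm10 coordinates of the table.

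Other genes also rose less in MOPS with no difference called at rest. Gfpt2, an enzyme that makes the sugar precursor for protein glycosylation, rose from under 1 CPM in all resting libraries to 22.1, 15 and 17.2 CPM in MOPS and 149, 153 and 135 CPM in HEPES (-2.74 ± 0.41, adjusted p = 5.50e-05). Sphk1, the kinase that makes sphingosine 1-phosphate, reached 63.2, 51.6 and 52.6 CPM and 202, 192 and 198 CPM (-2.0 ± 0.15, adjusted p = 3.83e-08). Traf1, a signalling adaptor of TNF receptors, reached 78.4, 65.7 and 65.4 CPM and 170.1, 159 and 161 CPM (-1.29 ± 0.13). For each of the 3 genes every HEPES library with LPS stood above every MOPS library with LPS. Il1rn, the antagonist of the interleukin-1 receptor (-1.08 ± 0.13, adjusted p = 1.24e-04), Hbegf, a ligand of the EGF receptor (-1.2 ± 0.15), and Dusp16, a phosphatase of MAP kinases (-1.02 ± 0.085), were in the same class. The costimulatory ligand Cd80 (-1.12 ± 0.085) and the receptor Cd40 (-0.78 ± 0.073) were already lower in MOPS at rest (-0.73 ± 0.067 and -0.32 ± 0.057), and the gap widened.

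Csf2, which encodes the growth factor GM-CSF, had an interaction of -3.90 ± 1.23 (adjusted p = 0.0176), with 6 counts in all at rest in MOPS and 3 in HEPES. With LPS it stood at 55.0, 44.6 and 47.7 CPM in MOPS and 351, 386 and 366 CPM in HEPES. The ratio of HEPES with LPS to HEPES at rest was 10500, with a 95% counting interval of 3580 to 50700, so the resting level, and with it the size of the interaction, is poorly fixed. Without MOPS replicate 2 or 3 the adjusted p rose to as much as 0.201. The difference with LPS itself was -2.91 ± 0.071 (adjusted p = 1.72e-16) and uses no resting library.

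The LPS response of the unfolded protein response genes was lower in MOPS for nearly all members tested. Of 16 members tested, 14 had a lower LPS response in MOPS and 1 a higher one, with a median interaction of -0.437. Over all genes tested 17.6% were lower and 21.9% higher, with a median of 0.0598, and the counts of the lists below are to be read beside these shares. The median LPS change of the 16 members was 0.356 in MOPS and 0.741 in HEPES. Their median difference (MOPS over HEPES) was 0.178 at rest and -0.137 with LPS. At rest 12 were higher in MOPS and 0 lower, and with LPS 1 was higher and 9 lower. Pdia4, Pdia6, Pdia3, Calr and Edem1 were higher in MOPS at rest and not called with LPS. Herpud1, which helps remove misfolded proteins from the endoplasmic reticulum, stood at 197, 198 and 189 CPM in MOPS and 186, 189.8 and 181 CPM in HEPES at rest. With LPS it reached 408, 412 and 413 CPM and 842, 821 and 780.5 CPM, an interaction of -1.06 ± 0.053 (adjusted p = 6.68e-16). The resting ranges overlap, and those with LPS are far apart. Hspa5, the main chaperone of the endoplasmic reticulum, went from 3232, 3247 and 3247 to 7749, 7410 and 7367 CPM in MOPS and from 2949, 2992 and 2855 to 12590, 12230 and 11590 CPM in HEPES. It was slightly higher in MOPS at rest (0.14 ± 0.037) and lower with LPS (-0.69 ± 0.037), an interaction of -0.84 ± 0.052 (adjusted p = 8.55e-14). The ubiquitin ligase Syvn1 (-0.84 ± 0.055) turned over in the same way. So did the oxidase Ero1l (-0.61 ± 0.059), which was counted in the list of hypoxia targets.

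The ER stress response element is a classical motif of this pathway. Its letters, CCAAT and CCACG with 9 bases of any kind between them, were searched on both strands in windows from 250 bases before to 50 after each gene start. They were found in 8 of 15 members with a RefSeq promoter (Hspa5, Hsp90b1, Calr, Canx, Pdia6, Dnajc3, Syvn1 and Creld2). By comparison, 0.119% of 32851 RefSeq promoters of that length hold them, and 0.167% of 10158 tested genes with one. The list is made of genes of this pathway, so the high share says nothing about the interaction. Canx holds the letters and had no interaction called (-0.12 ± 0.05, adjusted p = 0.0539). The promoters of Hspa5 (chr2:34771840-34772089, plus strand) and Syvn1 (chr19:6046326-6046575, plus strand) are shown because both genes turned over. Each sequence is the 250 bases before the start in GRCm38.p6, from RefSeq, 5′ to 3′, with the motif in capitals. A match describes the sequence and is not evidence of binding.
Hspa5: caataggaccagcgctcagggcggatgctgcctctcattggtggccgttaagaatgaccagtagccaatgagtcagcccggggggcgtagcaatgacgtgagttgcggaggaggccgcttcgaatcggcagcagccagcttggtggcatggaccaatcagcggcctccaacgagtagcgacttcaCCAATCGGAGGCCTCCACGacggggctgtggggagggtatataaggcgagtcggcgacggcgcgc
Syvn1: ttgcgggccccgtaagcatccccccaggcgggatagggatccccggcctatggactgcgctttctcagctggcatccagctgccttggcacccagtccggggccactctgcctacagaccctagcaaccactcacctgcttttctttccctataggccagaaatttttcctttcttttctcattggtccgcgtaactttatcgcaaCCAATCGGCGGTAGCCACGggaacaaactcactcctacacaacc

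The ATF4 list, genes of amino acid supply and stress that ATF4 switches on, moved in the same direction, with 15 of 19 members lower and 1 higher (median -0.547). Their median LPS change was 0.818 in HEPES and -0.027 in MOPS. At rest 10 members were higher in MOPS and 7 lower (median difference 0.201), and with LPS 1 was higher and 12 lower (median -0.346). For Cebpb, Ppp1r15a, Slc3a2 and Atf5 a resting excess in MOPS narrowed. Chac1, an enzyme that degrades glutathione, rose in HEPES from 4.29, 6.29 and 6.6 to 19.1, 13.2 and 15 CPM. In MOPS it stood at 3.60, 4.93 and 3.67 CPM at rest and 3.70, 3.64 and 2.70 CPM with LPS, and the change was not called (-0.28 ± 0.21, adjusted p = 0.236). The interaction was -1.75 ± 0.26 (adjusted p = 2.00e-05). Sesn2, a stress-induced inhibitor of mTORC1 signalling, responded in opposite directions. It fell in MOPS from 70.7, 74.0 and 73.3 to 39.6, 35.3 and 36.4 CPM and rose in HEPES from 45.8, 50.8 and 51.6 to 72.6, 65.5 and 72.5 CPM, an interaction of -1.48 ± 0.078 (adjusted p = 2.28e-15). Trib3, a pseudokinase induced by ATF4, fell in both media, from 79.6, 79.0 and 79.4 to 30.0, 30.6 and 28.8 CPM in MOPS and from 37.5, 42.2 and 41.6 to 37.5, 34.9 and 37.9 CPM in HEPES (-1.27 ± 0.077).

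Slc7a11, the cystine importer, belongs to the same list and to the NRF2 list, and its interaction has another shape. It started at 302, 318 and 309 CPM in MOPS and 107, 102 and 90.2 CPM in HEPES, and ended at 4474, 4323 and 3984 CPM and 4141, 3874 and 3970 CPM. The resting groups do not overlap, whereas with LPS the ranges do and the difference was not called (0.09 ± 0.048, adjusted p = 0.11). Its interaction of -1.54 ± 0.071 is thus a difference at rest that was no longer detected after LPS. In CPM the gain was 3951 in MOPS and 3896 in HEPES.

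The letters of an ATF4 composite element, TGATGNAA, were present on either strand in the 300-base windows of 6 of 18 ATF4 members (Trib3, Chac1, Asns, Slc7a11, Nupr1 and Aars), against 3.97% of all promoters and 2.81% of tested genes. As the list is made of genes that ATF4 switches on, this share too says nothing about the interaction. Nupr1 is the only member of the list with a higher interaction (0.72 ± 0.060). The promoters of Chac1 (chr2:119350992-119351241, plus strand) and Slc7a11 (chr3:50443614-50443863, minus strand) are printed as above because the 2 genes reached their interactions from unlike resting levels. The capitals TTGCATCA are the same letters on the other strand, and Slc7a11 holds the element at 2 places.
Chac1: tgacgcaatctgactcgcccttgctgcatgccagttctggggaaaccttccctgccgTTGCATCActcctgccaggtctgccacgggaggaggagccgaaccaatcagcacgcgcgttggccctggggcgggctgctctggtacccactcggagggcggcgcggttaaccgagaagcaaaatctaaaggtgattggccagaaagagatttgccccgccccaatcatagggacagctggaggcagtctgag
Slc7a11: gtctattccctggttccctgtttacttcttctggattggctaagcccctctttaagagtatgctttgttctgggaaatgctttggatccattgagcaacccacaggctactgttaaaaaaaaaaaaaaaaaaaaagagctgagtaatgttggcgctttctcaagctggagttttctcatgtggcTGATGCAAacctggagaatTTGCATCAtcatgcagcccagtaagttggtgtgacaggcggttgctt

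Several of the lowest interactions belonged to genes that were higher in MOPS before LPS. Ptgs2, the inducible cyclooxygenase of prostaglandin synthesis, was higher in MOPS at rest (8.26, 9.46 and 7.62 CPM against 1.65, 3.42 and 2.21 CPM). With LPS it was lower, at 2023, 1529 and 1538 CPM against 3176, 3164 and 3048 CPM. The groups do not overlap in either comparison, and the interaction of -2.69 ± 0.32 (adjusted p = 1.57e-04) joins a resting excess to a smaller gain in CPM (1688 against 3127). The deadenylase Noct turned over likewise (-2.56 ± 0.13), as did Penk, the precursor of enkephalin peptides (-3.28 ± 0.29). Cxcl3, a neutrophil chemokine, was higher in MOPS at rest (2.33 ± 0.48) and not called with LPS (-0.37 ± 0.18, adjusted p = 0.127), an interaction of -2.71 ± 0.51 (adjusted p = 0.00291). Sema3c, a secreted guidance protein, narrowed from 3.30 ± 0.14 to 0.70 ± 0.091, and the T cell chemokine Ccl5 from 1.73 ± 0.23 to 0.0089 ± 0.064.

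Of all interaction genes, 244 (4.27%) had gains in CPM that differed between the media in the direction opposite to the log2 interaction. With total-count scaling there were 397. Apart from Slc7a11, they include the heme-degrading enzyme Hmox1. It rose from 2451, 2503 and 2321 to 6684, 7048 and 6990 CPM in MOPS and from 480.4, 513 and 497 to 1557, 1696 and 1759 CPM in HEPES. Its log2 interaction of -0.24 ± 0.059 (adjusted p = 0.00155) is small beside the difference between the media, which was 2.29 ± 0.044 at rest and 2.05 ± 0.043 with LPS.

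Tnf, the early inflammatory cytokine, had the reverse form. At rest it was lower in MOPS, at 10.3, 13.3 and 13.8 CPM against 22.4, 25.5 and 24.7 CPM. With LPS it reached 8490, 8078 and 7985 CPM in MOPS and 8281, 9324 and 9311 CPM in HEPES, where the ranges overlap and no difference was called (-0.13 ± 0.063, adjusted p = 0.0941). The interaction of 0.82 ± 0.11 (adjusted p = 4.67e-05) is therefore positive although the gain was 8172 CPM in MOPS and 8948 CPM in HEPES. Ccl3 and Ccl4, chemokines for monocytes and T cells, followed the same form. Ccl4 was at 3.83, 3.60 and 3.38 CPM in MOPS and 9.96, 10.4 and 12.8 CPM in HEPES at rest and reached 758, 708 and 718 CPM and 916, 952 and 946 CPM. Both differences were called (-1.61 ± 0.092 at rest and -0.37 ± 0.043 with LPS), and the interaction was 1.2 ± 0.10 (adjusted p = 6.61e-11). For Ccl3 it was 0.79 ± 0.081.

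Some other cytokines had no interaction called, and of these Ccl2, Il1b, Il6 and Il12b were lower in MOPS with LPS. The monocyte chemokine Ccl2 stood at 49.3, 52.5 and 54.6 CPM in MOPS with LPS and 518, 562 and 483 CPM in HEPES with LPS, and at 3.16, 2.46 and 2.04 CPM and 17.7, 21.3 and 20.8 CPM at rest. The difference was -2.96 ± 0.13 at rest and -3.32 ± 0.073 with LPS, and the interaction of -0.36 ± 0.17 had a 95% interval of -0.73 to 0.0023 (adjusted p = 0.109). It was called in 4 of the alternative analyses (adjusted p 0.0157 to 0.432 over all of them). Il1b, encoding interleukin-1 beta, was at 6841, 5550 and 6053 CPM against 11690, 12060 and 11690 CPM with LPS (-0.94 ± 0.14), with an interaction of -0.29 ± 0.33 (adjusted p = 0.549). For Il6, whose product drives the acute-phase response, the interaction was 0.93 ± 1.08 (adjusted p = 0.553) and for the interleukin-12 subunit Il12b -1.37 ± 1.23 (adjusted p = 0.42). Il6 had 10 counts in MOPS and 43 in HEPES at rest, so its response ratio could not be fixed at this depth, although with LPS the difference was -1.04 ± 0.12. Il10, the anti-inflammatory cytokine, had an interaction of 1.95 ± 0.75 (adjusted p = 0.0606), which was called in 7 of the alternatives (adjusted p 3.7e-05 to 0.2 over all of them). Its difference was -2.42 at rest, from 11 counts in MOPS and 65 in HEPES. With LPS the ranges overlapped, at 22.1, 13.0 and 15.8 CPM in MOPS and 25.7, 23.1 and 21.75 CPM in HEPES. Of 18 cytokines tested, 1 had a higher and 3 a lower interaction, beside 39.4% called over all genes, and their median difference with LPS was -0.921. Of 17 chemokines, 4 were higher and 4 lower, close to the shares over all genes (21.9% and 17.6%).

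**Figure D4:**
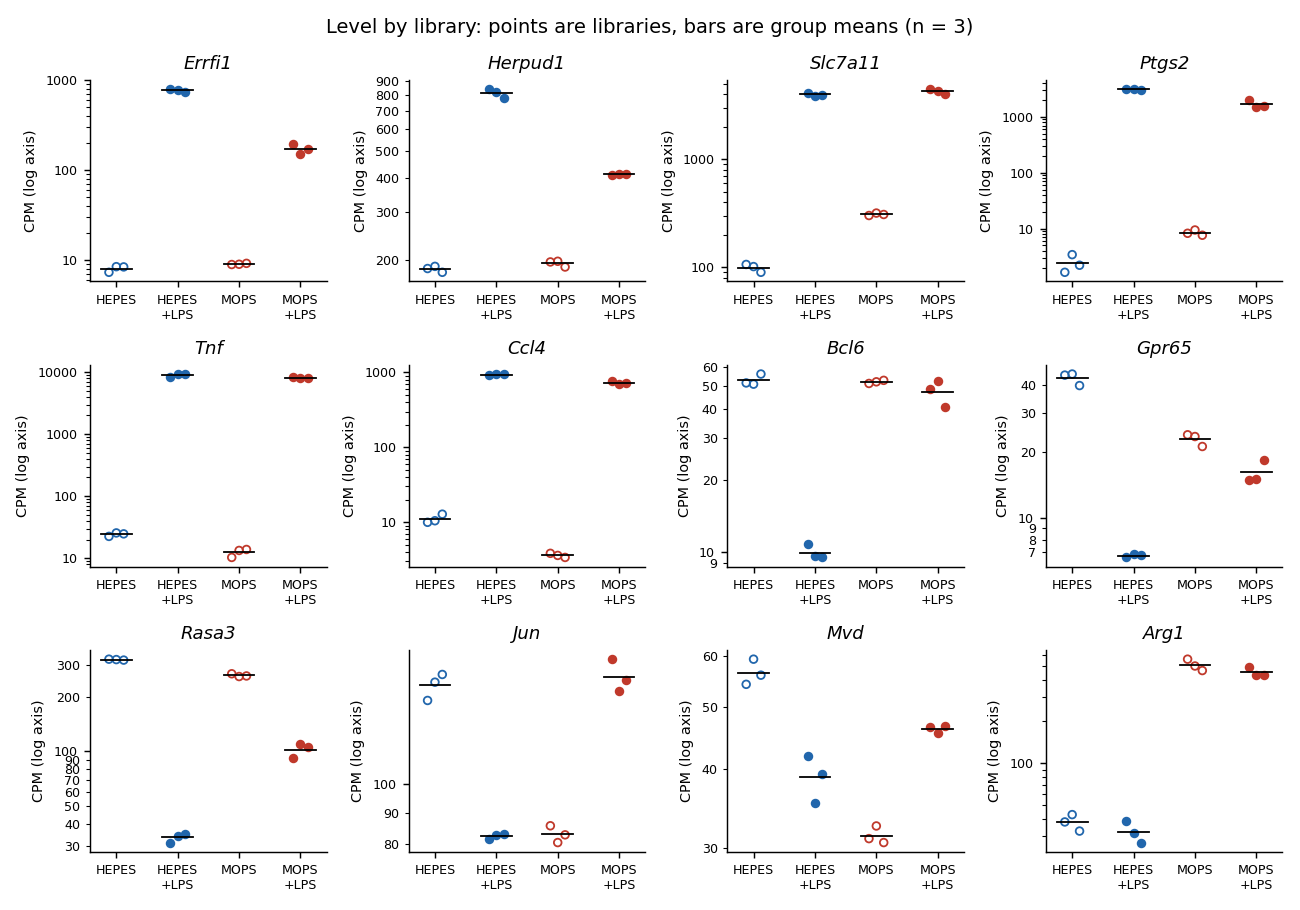
Level of 12 genes (y axis, CPM, log scale) in each of the 12 libraries, by group, with a bar at the group mean (n = 3). Errfi1 and Herpud1 are close at rest and apart with LPS, Tnf and Ccl4 are apart at rest and close with LPS, Bcl6 is low in the HEPES libraries with LPS alone, and Arg1 keeps its distance.

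Among genes of LPS signalling itself, lower responses in MOPS outnumbered higher ones. In the list of TLR4 pathway components, 12 of 21 members were lower and none higher by edgeR (median -0.239), 1 higher at an unadjusted p under 0.05, and with total-count scaling 10 were lower and 2 higher. DESeq2 and voom gave 12 lower and 0 higher. Among them were the receptor Tlr4 (-0.32 ± 0.078), its co-receptor Cd14 (-0.75 ± 0.074), the ubiquitin ligase Traf6 (-0.79 ± 0.061) and the kinase Ikbkb (-0.72 ± 0.059). Most of the Tlr4 difference was already present at rest (-0.85, and -1.17 with LPS), and its interaction widened that gap. Cd14 and Traf6 were slightly higher in MOPS at rest (0.225 and 0.15) and turned over, and Ikbkb had no difference called at rest. Of 18 NF-kappaB subunits and feedback genes, 13 were lower and 1 higher, with a median of -0.395. The one higher was Nfkbiz, an atypical inhibitor protein that switches on secondary response genes (0.46 ± 0.057, adjusted p = 1.35e-07), and its gains of 1415 CPM in MOPS and 1454 CPM in HEPES were close. The letters of a kappaB site (GGG, 2 bases of any kind, TT, 1 of any kind and CC) were searched on either strand. They were present in the windows of 8 of 15 members (Nfkb2, Rel, Nfkbia, Nfkbid, Bcl3, Tnfaip3, Tnip1 and Tnip3), against 4.79% of all promoters and 6.57% of tested genes. The list is made of genes of the NF-kappaB pathway, so this share says nothing about the interaction. Rel and Nfkbid hold the letters and had no interaction called (adjusted p = 0.553 and 0.927).

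Among 20 brakes on signalling and mRNA decay factors, 6 were higher and 9 lower (median -0.178). Zfp36, which destabilises cytokine mRNAs, rose more in MOPS (1.74 ± 0.045) than in HEPES (1.08 ± 0.045), an interaction of 0.66 ± 0.063 (adjusted p = 7.76e-10). Zc3h12a, a ribonuclease with the same kind of target, rose less in MOPS (-0.81 ± 0.071). Of 27 interferon-response genes, 6 were higher and 8 lower (21.9% and 17.6% over all genes). Usp18, a brake on interferon signalling, fell in MOPS (-1.54 ± 0.18) and was not called in HEPES (-0.09 ± 0.14, adjusted p = 0.555), an interaction of -1.45 ± 0.23. Of 18 inflammatory enzymes and growth factors, 4 were higher and 6 lower (median -0.884), and 9 were lower in DESeq2.

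Of 21 immediate-early genes, 7 were higher and 6 lower, beside 21.9% and 17.6% over all genes. Jun, a subunit of the AP-1 transcription factor, responded in opposite directions. It rose in MOPS from 85.7, 80.6 and 82.9 to 158, 141 and 147 CPM and fell in HEPES from 136, 146 and 149.8 to 81.5, 83.0 and 83.2 CPM, so the media changed places and no group overlaps its counterpart. The interaction was 1.64 ± 0.066 (adjusted p = 9.96e-18). Nr4a1, an orphan nuclear receptor, was level at rest (45.5, 41.0 and 43.2 CPM in MOPS and 40.6, 37.4 and 52.6 CPM in HEPES). With LPS it reached 187, 163 and 181 CPM in MOPS, while in HEPES it stood at 47.5, 46.1 and 46.4 CPM and the change was not called (0.10 ± 0.12, adjusted p = 0.442). Its interaction was 1.93 ± 0.16 (adjusted p = 5.42e-06). Atf3, a stress-induced repressor, fell in HEPES (-0.78 ± 0.061) and was not called in MOPS (0.12 ± 0.059, adjusted p = 0.0693), an interaction of 0.90 ± 0.085.

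Most of the higher interactions, 2377 of 3173, belonged to genes that fell in HEPES and fell less, or not detectably, in MOPS. Bcl6, a transcriptional repressor of inflammatory genes, stood at 51.1, 51.9 and 52.7 CPM in MOPS and 51.4, 50.8 and 56.0 CPM in HEPES at rest. With LPS it was at 48.3, 52.5 and 40.7 CPM in MOPS and 10.7, 9.58 and 9.46 CPM in HEPES, so only the HEPES libraries with LPS stand apart. In MOPS the change was not called (-0.13 ± 0.065, adjusted p = 0.0689), and the interaction was 2.28 ± 0.11 (adjusted p = 1.22e-15). Bcl6 (ENSMUSG00000022508) lies on chromosome 16 from 23965052 to 23988852.

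Tent5c, a poly(A) polymerase, rose in MOPS (0.69 ± 0.15) and fell in HEPES (-1.91 ± 0.17), an interaction of 2.61 ± 0.23. Sesn1, a stress-response inhibitor of mTORC1 signalling, fell in both media, from 66.3, 65.4 and 68.3 to 9.31, 9.17 and 9.37 CPM in MOPS and from 156, 154 and 162 to 5.01, 4.84 and 5.28 CPM in HEPES (2.12 ± 0.098). Rasa3, a GTPase-activating protein, fell from 269, 259 and 261 to 91.6, 109.6 and 106 CPM in MOPS and from 324, 322 and 319.7 to 31.4, 34.3 and 35.2 CPM in HEPES (1.90 ± 0.073, adjusted p = 9.96e-18). Gpr183, an oxysterol receptor (2.55 ± 0.27), Thbd, the thrombin receptor thrombomodulin (2.42 ± 0.27), and the corepressor Cbfa2t3 (1.90 ± 0.14) turned over in the same direction. Gpr183 overlaps Ubac2 on the opposite strand and Cbfa2t3 overlaps Gm15899 on the same strand, so their counts are less certain.

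B cell markers moved with these genes. Of 15 tested, 13 had a higher interaction and none a lower one by edgeR, also at an unadjusted p under 0.05, and DESeq2 and voom each gave 12 higher and 0 lower. Their median interaction was 1.261, and their median difference was 0.613 at rest and 1.735 with LPS. Cd79b, a subunit of the B cell receptor, had an interaction of 1.73 ± 0.28 (adjusted p = 9.85e-05), Ms4a1, encoding CD20, 1.48 ± 0.22, and the immunoglobulin light chain Igkc 1.42 ± 0.26. Their summed level was 36.91 to 42.05 CPM in HEPES with LPS, the lowest of the groups. Bcl6, Gpr183, Rasa3 and Cbfa2t3 are also expressed in B cells, and the part of the B cell markers in these results was not tested. Macrophage genes were also among those that fell less in MOPS: the efferocytosis receptor Mertk (0.89 ± 0.067) and the scavenger receptor Cd163 (1.35 ± 0.14). Of the 14 macrophage markers, 6 were higher and 4 lower, and of 11 dendritic cell and small peritoneal macrophage markers 2 and 2. Among granulocyte and mast cell markers 1 of 9 tested was higher. None of 3 T and NK cell markers and 7 mesothelial and stromal markers tested was called by edgeR, DESeq2 or voom, and 0 reached an unadjusted p under 0.05 in edgeR.

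Gata6, the transcription factor that defines large peritoneal macrophages, went the other way. It stood at 36.3, 36.4 and 37.4 CPM in MOPS and 31.0, 30.2 and 29.6 CPM in HEPES at rest, and at 53.2, 42.9 and 48.2 CPM and 134, 135 and 132 CPM with LPS. It rose in both media, but far more in HEPES, and the resting difference turned over (-1.75 ± 0.079, adjusted p = 8.68e-17). Of 22 genes in its list, 8 were higher and 2 lower in the interaction (median 0.132), beside 21.9% and 17.6% over all genes, and 13 were higher and 2 lower with total-count scaling.

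The proton-sensing receptors had interactions of opposite sign. Gpr65, a receptor that proton binding activates, was lower in MOPS at rest, at 23.8, 23.4 and 21.1 CPM against 44.4, 44.9 and 39.8 CPM. With LPS it was higher, at 14.9, 15 and 18.4 CPM against 6.64, 6.86 and 6.79 CPM. The fall was -0.50 ± 0.08 in MOPS and -2.67 ± 0.088 in HEPES, an interaction of 2.16 ± 0.12 (adjusted p = 9.11e-15). Gpr132, a related receptor, rose in both media, from 7.67, 8.79 and 7.62 to 66.8, 56.4 and 61.2 CPM in MOPS and from 5.20, 4.40 and 4.46 to 74.4, 69.0 and 75.7 CPM in HEPES (-1.03 ± 0.12, adjusted p = 3.30e-08). Slc4a7, a bicarbonate transporter, rose less in MOPS (-0.90 ± 0.074). Of 16 genes of proton sensing and acid-base transport, 4 were higher and 4 lower, near the 21.9% and 17.6% over all genes.

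Cholesterol synthesis and uptake genes had 15 higher interactions among 21 members and none lower by edgeR (median 0.509), with 0 lower also at an unadjusted p under 0.05. DESeq2 and voom each gave 14 higher and 0 lower. Their median difference was -2.145 at rest and -1.599 with LPS, so a gap present before LPS became smaller and was not closed. Mvd, an enzyme of the mevalonate pathway, stood at 31.1, 32.5 and 30.6 CPM in MOPS and 54.2, 59.4 and 56.0 CPM in HEPES at rest. With LPS it was at 46.5, 45.4 and 46.6 CPM and 41.9, 35.4 and 39.2 CPM, so the MOPS libraries went from below to above those of HEPES. It rose in MOPS (0.55 ± 0.058) and fell in HEPES (-0.54 ± 0.056), an interaction of 1.10 ± 0.081 (adjusted p = 3.58e-12). For the desaturase Scd2, counted in the list of LXR targets and fatty acid synthesis, the gap narrowed (1.55 ± 0.20), from -2.98 ± 0.12 to -1.43 ± 0.15. Squalene synthase, Fdft1, and the sterol desaturase Sc5d had no interaction called (0.30 ± 0.12, adjusted p = 0.0545, and -0.20 ± 0.10, adjusted p = 0.109) and were lower in MOPS in both comparisons (-2.10 ± 0.088 and -2.07 ± 0.077 with LPS). Fdft1 was called in 6 of the 18 alternatives (adjusted p 0.0123 to 0.33 over all of them) and Sc5d in 2 (0.00588 to 0.404). Part of the Fdft1 locus overlaps Ctsb on the opposite strand, and their reads cannot be told apart without a strand setting.

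Lysosomal genes mostly had higher interactions, 22 of 30 with 1 lower (median 0.224), and 16 with 2 lower when libraries were scaled by the DESeq2 size factor method. Their levels were not mostly higher in MOPS. At rest 18 were lower and 4 higher in MOPS (median difference -0.235), and with LPS 11 were lower and 10 higher (median -0.064). The lysosomal lipase Lipa fell less in MOPS (0.51 ± 0.06) and the sialidase Neu1 rose in MOPS and fell in HEPES (0.55 ± 0.061). Tfeb, a master regulator of lysosomal genes, fell from 49.0, 51.0 and 50.7 to 13.5, 15.4 and 15.4 CPM in MOPS and from 54.5, 60.4 and 56.5 to 7.78, 7.5 and 7.79 CPM in HEPES (1.13 ± 0.10, adjusted p = 1.99e-10). Nuclear genes of oxidative phosphorylation had 10 of 30 higher and 1 lower, against 19 higher and 1 lower with total-count scaling and 6 and 2 in DESeq2. Of 13 genes encoded in mitochondrial DNA 1 was higher and 0 lower by edgeR, with 4 and 0 at an unadjusted p under 0.05. DESeq2 and voom each gave 3 and 0, and total-count scaling gave 5 and 0. Glycolysis genes were 8 of 21 higher and 1 lower. The single lower gene, Hk2, encodes the inducible hexokinase, and it rose less in MOPS (-0.83 ± 0.082), while phosphofructokinase Pfkl rose in MOPS and fell in HEPES (0.76 ± 0.079).

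NRF2 targets, the antioxidant genes, had interactions in both directions, 9 higher and 8 lower of 19. Their median difference was 1.075 at rest and 1.05 with LPS, so the excess in MOPS persisted. Thioredoxin reductase Txnrd1 narrowed (-0.54 ± 0.053), and glutathione reductase Gsr fell in MOPS and rose in HEPES (-0.58 ± 0.052). The remaining lists are given beside the 21.9% higher and 17.6% lower of all genes. Of 21 genes that burn fatty acids 6 were higher and 4 lower, close to those shares, and LXR targets were 7 and 2 of 15, hypoxia targets 5 and 4 of 18, and clock genes 6 and 4 of 16. Cell cycle genes were 7 higher and 3 lower of 23 and antigen presentation genes 3 and 2 of 20, or 6 and 2 with total-count scaling. Alternative activation genes were 5 and 6 of 18, and cAMP-CREB targets 4 and 3 of 17, or 6 and 2 with total-count scaling.

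**Figure D5:**
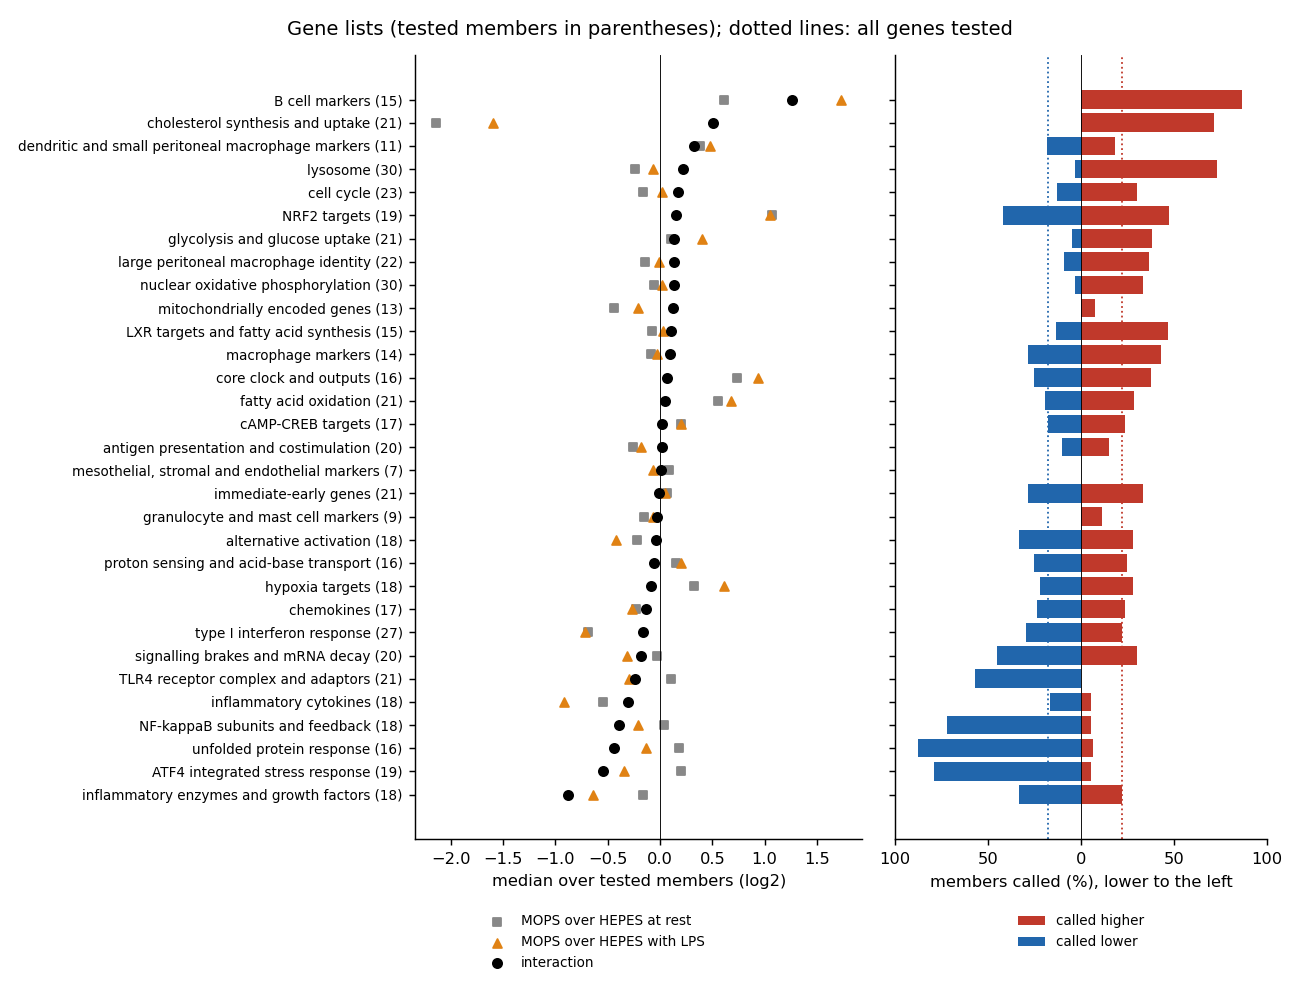
Left, median log2 value over the tested members of each list with at least 5 (circles for the interaction, squares for the difference at rest, triangles for that with LPS). Right, percentage of members called higher or lower in the interaction, with dotted lines at the shares over all genes. The unfolded protein response, ATF4 and NF-kappaB lists lie left of 0, with medians of -0.437, -0.547 and -0.395, and the cholesterol and B cell lists lie right of it, with 0.509 and 1.261.

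The 1617 carried genes, 777 higher and 840 lower in MOPS, show the opposite of an altered response. Their members were chosen by the calls and intervals that define them, so the values are a description. Arg1, the arginase of alternatively activated macrophages, stood at 562, 502 and 465 CPM in MOPS and 37.9, 42.8 and 32.6 CPM in HEPES at rest, and at 491, 435 and 432 CPM and 38.2, 31.4 and 26.9 CPM with LPS. MOPS libraries were high and HEPES libraries low whether or not LPS was given, and LPS changed Arg1 detectably in neither medium. Its interaction was 0.06 ± 0.20, with a 95% interval of -0.39 to 0.51. Ucp2, a mitochondrial carrier, was at 2058, 2024 and 2009 CPM and 559, 561 and 543 CPM at rest and at 2145, 2149 and 2278 CPM and 571, 555 and 547 CPM with LPS (0.10 ± 0.05). Wnk2, a kinase of ion transport control, had an interaction of -0.09 ± 0.17 and Pla2g7, a phospholipase that degrades platelet-activating factor, of 0.12 ± 0.072. An interaction was called in 2 of the 18 alternatives for Ucp2 (adjusted p 0.00486 to 0.645 over all of them). The same held in 2 for Pla2g7 (0.0317 to 0.804).

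Carried genes could also respond to LPS. Clec12a, an inhibitory lectin receptor, was lower in MOPS at rest (24.8, 30.4 and 28.4 CPM against 118, 124 and 129.9 CPM) and with LPS (43.3, 44.7 and 51.8 CPM against 188, 213 and 198 CPM). It rose to a like extent in both media (0.74 ± 0.081 and 0.69 ± 0.066), an interaction of 0.05 ± 0.10. The serine protease Htra4, higher in MOPS at rest (2.30 ± 0.19), rose by 2.90 ± 0.12 in MOPS and 2.91 ± 0.19 in HEPES. Pdk4, a kinase that restrains pyruvate oxidation, was almost absent from HEPES, with 4295 counts in MOPS and 17 in HEPES at rest, and 516 and 2 with LPS. The ratio of MOPS to HEPES with LPS was 242, with a 95% counting interval of 66.7 to 2010. Its interaction of -0.32 ± 1.95 was too imprecise to place the gene in either class.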

How the data were processed

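Per the file headers, the deposited table gives a raw count per gene and library, with coordinates and lengths, and FPKM columns that the authors computed (not used here). CASAVA 1.8, HISAT2 2.0.5, featureCounts 1.5.0-p3 and build mm10 are named in the submitters' processing notes. The sources used here give neither the strand setting nor the annotation release.

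Counts of the 12 libraries were fitted in 1 model of 4 groups with edgeR 4.0.16 in R 4.3.3 (filterByExpr, TMM scaling, robust quasi-likelihood test, 8 residual degrees of freedom, common biological coefficient of variation 4.62%), and genes were called at an adjusted p under 0.05. Standard errors were approximated from the log2 change and the square root of its F statistic. The contrast subtracted the HEPES response from the MOPS response. The contrasts at rest, with LPS and within each medium come from the same fit. A difference was called carried when it was called at rest and with LPS in 1 direction and the 95% interval of an uncalled interaction lay within 1.5-fold.

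Members and lists were chosen with earlier results of these data known. Named genes were the largest and most precise interactions in each class and direction among protein-coding genes with at least 10 CPM in the highest group, list members, and a set list, 136 in all. Alternatives were total-count and DESeq2-type scaling, DESeq2 1.42.0, limma-voom 3.58.1, other filters, a 1.5-fold threshold and leaving out each library. On simulated data for the interaction (14311 genes), 54, 72, 78 and 88% of genes changed 1.5, 2, 3 and 4-fold were recovered, with 6 false calls. There 50 genes were changed at each fold and all others had equal LPS responses in both media. In the data 39.4% of genes were called, so these rates do not carry over to them directly. Within groups, libraries differed by more than counting error. Counting intervals cover counting error only. Promoters are from RefSeq, GRCm38.p6. Some named genes are not reported here.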

Additional observations from a re-analysis of the deposited data

Results flagged for a closer look

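Every interaction call is itself a difference between the media in their response to LPS. Of the genes reported here, 11 had LPS changes called in opposite directions, with the interaction test giving the difference itself. The LPS change was lower in MOPS for Sesn2 (-0.97 in MOPS and 0.51 in HEPES, interaction -1.48). It was also lower for the lipase inhibitor Angptl4 (-0.72 and 0.43, interaction -1.15) and glutathione reductase Gsr (-0.24 and 0.33, interaction -0.58). The level of Angptl4 was far higher in MOPS at rest, at 156.3, 148.5 and 154.1 CPM against 1.76, 1.85 and 1.36 CPM in HEPES. With LPS it stood at 93.7, 85.7 and 99.7 CPM in MOPS and 2.72, 2.13 and 1.89 CPM in HEPES. Gsr was also higher in MOPS at rest (1.76) and with LPS (1.18). The LPS change was higher in MOPS for Jun (0.84 and -0.80, interaction 1.64), Tent5c (0.69 and -1.91, interaction 2.61) and Mvd (0.55 and -0.54, interaction 1.10). Smaller values in the same direction were those of the immunoproteasome subunit Psmb8 (0.33), the respiratory chain subunit Ndufb8 (0.40), the sialidase Neu1 (0.55), the ubiquitin ligase Mylip (0.64) and phosphofructokinase Pfkl (0.76). Groups of 3 libraries are too small for a search for single outlying samples.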

How the results depend on the processing

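Of the 5719 interaction calls, those still tested under an alternative were called again in the same direction in 86.5 to 97.1% of cases over the 18 alternatives, and none in the opposite direction. With the 10 CPM filter, which tests 8794 genes, 4724 of the 5719 were called. Leaving out 1 library at a time gave 2509 to 3000 higher and 2332 to 2938 lower calls. The share of calls that were higher was 55.48% with TMM, 66.37% with total-count scaling, 48.98% with DESeq2-type scaling and 48.61% with DESeq2, and from 46.77 to 55.93% with 1 library left out. Tested against 1.5-fold, the counts were 413 higher and 187 lower, because that test asks for a larger effect. With total-count scaling, 397 interaction genes had CPM gains of the opposite sign. Of 136 named genes, 118 kept direction and side of the threshold under every alternative. The genes whose interaction changed sign were all uncalled with all libraries, and the cause was not tested. With 1 library left out the interaction ranged from -0.263 to 0.047 for Acod1 (sign changed without MOPS 2), -0.094 to 0.279 for C77080 (MOPS with LPS 8), -0.194 to 1.395 for Il6 (HEPES 5), -1.711 to 1.683 for Nos2 (MOPS 3), -0.895 to 2.654 for Pdk4 and -0.246 to 0.037 for Wnk2 (both HEPES with LPS 12). The range was -0.102 to 0.157 for Arg1 (sign changed without MOPS 3, HEPES 5, MOPS with LPS 7, or replicates 11 or 12 of HEPES with LPS) and -0.043 to 0.116 for Clec12a (MOPS 1, MOPS with LPS 9, or replicates 10 or 12 of HEPES with LPS). For Htra4 it was -0.188 to 0.265 (sign changed without MOPS 2 or 3, HEPES 5, MOPS with LPS 7 or HEPES with LPS 11), and the value was 0.057 with total-count scaling, 0.008 with no filter and 0.018 with a 10 CPM filter. No paired analysis was possible because the replicate numbers run from 1 to 12 and no 2 groups share one. Depth limits genes near 0 counts at rest, such as Csf2, Il6, Il12b and Nos2, whose response ratios have wide errors.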
